A study of Mus musculus with 4 samples.

Results

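Nucleolar ribosome biogenesis factors were followed in late 2-cell mouse embryos with and without siRNA against Uqcc3. The set was given as a list of 60 gene symbols, grouped by function with no measured value in the rule: the protein cores of the small nucleolar ribonucleoproteins (snoRNPs), proteins of nucleolar organisation and of transcription of the ribosomal DNA, and processing factors of the small and the large ribosomal subunit. All 60 symbols were found among the 47445 gene identifiers of the tables, each with 1 identifier. Of these, 59 reached at least 1 FPKM (fragments per kilobase of transcript, scaled to the mapped fragments of the library) in at least 2 of the 4 libraries and entered the test, among 12390 tested genes in all. Nol6, a small subunit processome protein, did not, at 1.38 and 0.712 FPKM in the controls and 0.151 and 0.973 FPKM with siRNA.

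The study injected zygotes of C57BL/6N mice, from females aged 8 weeks, with siRNA at 5 µM and 8 hpi (the labels' unit) and collected embryos of normal morphology at the late 2-cell stage. Uqcc3 encodes an assembly factor of respiratory complex III. The siRNA group (2 libraries) received siRNA to Uqcc3 and the control group (2 libraries) a negative-control siRNA per the labels' protocols, but their treatment is labelled none and the series' design describes normal embryos. No genetic alteration is named for either group. No source used here says how many embryos were pooled or whether libraries of 1 group came from separate mice. The p-values therefore reflect only how these libraries varied, possibly for technical reasons. With the number of embryos per library unknown, fewer cells and less RNA per cell cannot be told apart.

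Ribosomes are built in the nucleolus. RNA polymerase I transcribes a long precursor, box C/D snoRNPs guide its methylation and box H/ACA snoRNPs the isomerisation of uridine to pseudouridine, and the U3-containing small subunit processome cleaves it while the small subunit folds. Other factors assemble the large subunit and carry both subunits to export. Mouse zygotes enter development with nucleolus precursor bodies that are largely silent, and rRNA synthesis resumes around genome activation at the 2-cell stage, when transcripts of many of these factors accumulate.

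The libraries were not alike, and siRNA replicate 2 stood apart. Its log2 values correlated with the other libraries at 0.624 to 0.651 (Pearson, across the 12390 tested genes, which are not independent replicates), against 0.867 to 0.875 among the other 3. It held 9771 genes at 1 FPKM or more, against 11818 to 12202 in the others. Implied depth was a median over 479 to 581 single-transcript genes, from their FPKM, length and the fragments implied by the tables' error bounds. It was 1.65e+07 and 1.88e+07 fragments in the controls and 1.16e+07 and 1.18e+07 fragments with siRNA. Implied fragments summed over all genes were fewer, at 6.51e+06 and 6.88e+06 in the controls and 3.94e+06 and 4.15e+06 with siRNA. The cause of that gap was not tested. The mitochondrial genome's share of all FPKM was 17.4% and 18.0% for controls, 27.97% for siRNA replicate 1 and 16.6% for the other siRNA library, and its part in the results was not tested. Uqcc3 itself stood at 147 and 211 FPKM in the controls against 23.7 and 19.8 FPKM after siRNA, a log2 difference of -2.97 (SE 0.63, limma adjusted p = 0.745). Of 13 listed 2-cell markers 10 to 12 reached 1 FPKM in every library, summing to 1474 and 1989 FPKM in the controls and 1114 and 614 FPKM with siRNA, and their part in the results was not tested. The 11 markers of cumulus and granulosa cells summed to 8.62 to 21.3 FPKM in each library. Amhr2 was detected in every library, at 5.16 to 7.58 FPKM. Tnfaip6 ranged from 0.602 FPKM in siRNA replicate 2 to 14.1 FPKM in control replicate 2. Cyp19a1 reached 2.97 FPKM in siRNA replicate 1, while Amh, Fshr and Star were listed at 0 in all 4 libraries. Whether such cells were present was not tested.

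Most of the set lay below the controls in siRNA replicate 1, whereas siRNA replicate 2 held both low and high members. No member passed an adjusted p of 0.05 in limma with both siRNA libraries (0 of 59, smallest adjusted p = 0.745), and none of all 12390 genes did (0.00%). At an unadjusted p under 0.05 in limma, 6 of 59 members were lower and 0 higher, against 5.21% and 0.743% of all tested genes (5.96% in either direction). Without the abundance trend limma gave 0 adjusted calls, and 5 members lower at an unadjusted p under 0.05. That count in limma was 3 with TPM, 1 with median-of-ratios scaling, 1 with quantile normalization and 0 with cyclic loess (1 higher). It was 7 with a filter at 5 FPKM, 9 with no filter and 7 with a pseudocount of 0.1. The share of all genes at that p was not taken for these settings. The median log2 difference, siRNA minus control on log2(FPKM + 1), was -0.50 over the members and -0.39 over all tested genes. In 20 of 59 members (33.9%) neither siRNA library reached the lower control, against 30.0% of all tested genes, and in 1 (Noc3l) both exceeded the higher control, against 8.60%. The 33.9% is close to its background, and the 6 members at an unadjusted p under 0.05 are 10.2% of those tested.

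Taken by library, siRNA replicate 1 lay below both controls in 49 of 59 members (48.3% of all tested genes) and above both in 2, Fbl and Noc3l (20.6% of all tested genes). Its median difference from the control mean was -0.96 over the members and -0.30 over all tested genes. siRNA replicate 2 lay below both controls in 21 members (50.5% of all tested genes) and above both in 26 (32.0%), with a median difference of 0.14 over the members and -0.57 over all genes. In 18 members siRNA replicate 1 lay below both controls while siRNA replicate 2 lay above both (13.3% of all tested genes), among them Ncl, Npm1, Gar1, Utp3 and Pes1. The reverse held in 1 member, Fbl (8.44%). Differences of more than 1 (log2) from the control mean were found in siRNA replicate 1 for 27 members on the low side (20.4% of all tested genes) and 0 on the high side (7.62%). The corresponding counts for siRNA replicate 2 were 13 (39.6%) and 18 (21.5%). The difference between the 2 siRNA libraries has no replicate check, and within-library counts compare libraries, not conditions. Scaling between libraries shifted all genes: the median of all tested genes moved from -0.39 to -0.08 with TPM, -0.06 with median-of-ratios scaling, 0.01 with quantile normalization and 0.03 with cyclic loess. Under these the members' median was -0.13, -0.09, -0.12 and 0.04. The count below both controls in siRNA replicate 1 then came to 41, 37, 38 and 35 of 59 members, against 41.1%, 32.3%, 35.8% and 33.2% of all genes. The count above both controls in siRNA replicate 2 went from 26 to 38, 33, 34 and 36, against 42.8%, 38.1%, 41.2% and 41.9% of all genes.

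**Figure D1:**
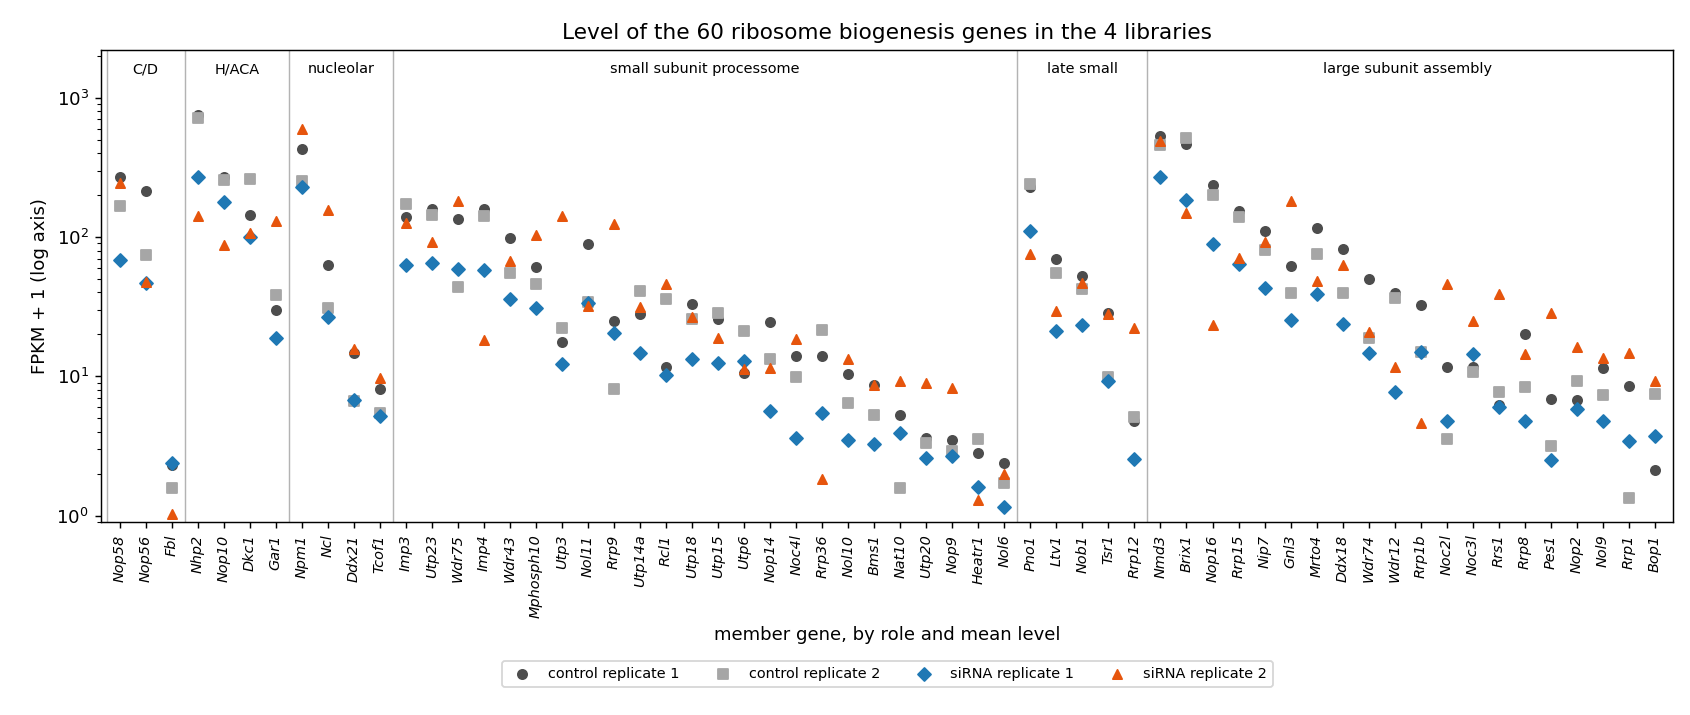
FPKM + 1 (log axis) of the 60 members in the 4 libraries, 1 point per library, grouped by role and ordered by mean level. The diamonds of siRNA replicate 1 lie below both controls in 49 of the 59 tested members, while the triangles of siRNA replicate 2 lie above both controls in 26 and below both in 21.

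**Figure D2:**
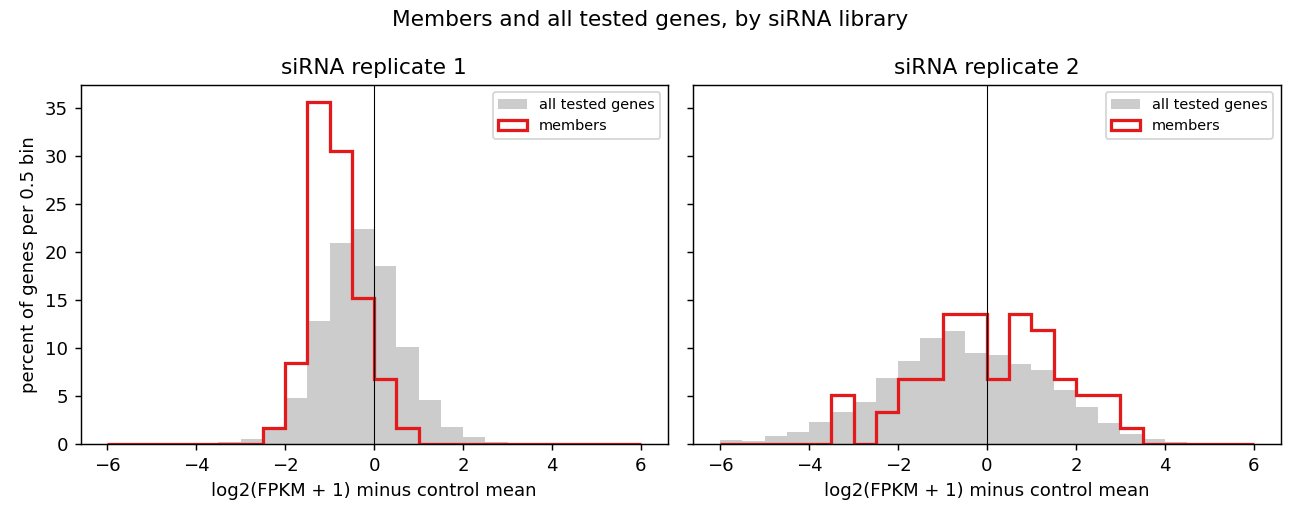
Percent of genes per bin of 0.5 in the log2(FPKM + 1) difference of each siRNA library from the control mean, for the 59 tested members (line) and all 12390 tested genes (grey, with 27 genes beyond the outer bins added to them). In siRNA replicate 1 the members centre on -0.96 against -0.30 for all genes, and in siRNA replicate 2 they spread from -3.25 to 3.13.

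Promoters are shown because members that share a motif can be read beside their values. RefSeq windows on GRCm38.p6, from 250 bases before to 50 after the start, were at hand for 51 of the 60 members (all but Fbl, Npm1, Tcof1, Utp6, Utp23, Nol6, Rrp12, Bop1 and Rrs1). The E-box CACGTG, a palindrome and so the same on both strands, which is bound by Myc and related factors, stood in 11 of the 51 (21.6%). It stood in 7.24% of the 27025 promoters of the table and in 10.4% of the 8184 whose genes were tested. A match is a stretch of letters and not a shown binding site. Below are the motif with up to 20 bases on each side for 9 of the members that hold it, and the whole window for the other two, Pno1 and Pes1, and for Nhp2, the member with the smallest p, which holds none. Sequences run 5′ to 3′ on the gene's strand, with the motif in capitals.
Imp4 (chr1:34439688-34439733, plus strand): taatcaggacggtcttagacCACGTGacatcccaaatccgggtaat
Ltv1 (chr10:13193088-13193129, minus strand): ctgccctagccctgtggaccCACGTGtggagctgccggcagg
Nmd3 (chr3:69721921-69721966, plus strand): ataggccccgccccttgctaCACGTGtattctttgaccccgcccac
Nol11 (chr11:107189399-107189444, minus strand): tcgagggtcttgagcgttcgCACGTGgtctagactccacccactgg
Nop2 (chr6:125131803-125131848, plus strand): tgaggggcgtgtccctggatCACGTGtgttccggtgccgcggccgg
Tsr1 (chr11:74898084-74898129, plus strand): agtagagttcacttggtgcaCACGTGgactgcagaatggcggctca
Utp18 (chr11:93885761-93885806, minus strand): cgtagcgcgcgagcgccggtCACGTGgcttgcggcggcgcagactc
Utp20 (chr10:88826765-88826797, minus strand): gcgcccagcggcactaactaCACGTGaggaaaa
Wdr43 (chr17:71616212-71616257, plus strand): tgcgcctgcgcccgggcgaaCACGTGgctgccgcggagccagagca
Nhp2 (chr11:51619523-51619822, plus strand): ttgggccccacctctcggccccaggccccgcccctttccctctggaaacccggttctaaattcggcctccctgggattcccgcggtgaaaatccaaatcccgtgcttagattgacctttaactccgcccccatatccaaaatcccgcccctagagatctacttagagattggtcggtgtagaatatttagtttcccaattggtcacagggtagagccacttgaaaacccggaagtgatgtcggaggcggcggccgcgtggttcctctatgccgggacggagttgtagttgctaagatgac
Pno1 (chr11:17211540-17211839, minus strand): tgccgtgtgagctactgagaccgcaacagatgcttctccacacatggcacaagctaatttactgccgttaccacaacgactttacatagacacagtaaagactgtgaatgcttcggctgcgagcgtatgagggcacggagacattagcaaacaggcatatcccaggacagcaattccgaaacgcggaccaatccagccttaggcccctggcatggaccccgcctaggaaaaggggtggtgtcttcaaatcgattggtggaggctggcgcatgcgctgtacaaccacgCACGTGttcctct
Pes1 (chr11:3963725-3964024, plus strand): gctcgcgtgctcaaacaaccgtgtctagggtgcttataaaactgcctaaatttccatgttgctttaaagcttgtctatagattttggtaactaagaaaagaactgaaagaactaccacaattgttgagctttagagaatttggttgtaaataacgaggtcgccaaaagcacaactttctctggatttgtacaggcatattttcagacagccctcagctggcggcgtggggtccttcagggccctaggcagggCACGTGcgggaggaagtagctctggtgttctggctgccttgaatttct

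All 11 members with CACGTG were below both controls in siRNA replicate 1, and so were 33 of the 40 tested members with a window but no motif. Of all tested genes, 48.3% were, and tested genes with the motif outside the set were not counted. Median differences were -0.89 with and -1.03 without the motif for siRNA replicate 1, and -0.13 and 0.15 for the other siRNA library. Pno1 and Pes1, both with the motif near the start (first base at 38 and 3, counting the start as 1), differed in siRNA replicate 2, at 31.6% and 682% of the control mean. Members with and without the motif overlapped in their values.

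Of the box C/D core, the set holds Nop56 and Nop58, paralogous scaffold proteins, and Fbl, the methyltransferase fibrillarin. Nop56 stood at 212 and 73.3 FPKM in controls, against 45.4 and 46.4 FPKM after siRNA (replicate 1 first in each pair, here and in what follows). Both siRNA values lay below both controls, but the controls lay as far from each other, and the log2 difference of -1.43 (SE 0.72) did not pass in limma (adjusted p = 0.745). Nop58 stood at 271 and 166 FPKM in controls, against 67.0 and 242 FPKM after siRNA. Only siRNA replicate 1 was below the controls, at 30.7% of their mean, and siRNA replicate 2 lay between them. Fbl was listed at 1.29 and 0.590 FPKM in controls, against 1.39 and 0.0347 FPKM after siRNA. These values rest on at most 4 implied fragments a library, so no difference was detectable at this depth. Near-identical copies were searched for among annotated pseudogenes, since reads may be split between them (at least 90% identity over 500 bases). Fbl had 2 such copies, whose summed FPKM reached at most 1.84 in any library, and Nop56 had 4, of which those in the tables reached 10.9.

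In the box H/ACA core both siRNA libraries were lower than either control for 3 of 4 members (30.0% of all tested genes). Nhp2, an RNA-binding core protein of these snoRNPs and of telomerase, lies on chromosome 11 from 51619735 to 51623714 (mm10, GENCODE M21). It stood at 749 and 709 FPKM in controls, against 268 and 141 FPKM after siRNA. The controls were close together in FPKM and both siRNA libraries lay far under them, at 36.8% and 19.3% of their mean. Implied fragments of Nhp2 were 3027 and 2904 in controls, against 1593 and 1036 after siRNA, where implied depth was also lower. FPKM of Nhp2 thus fell further than its fragments did, and the cause was not tested. Its log2 difference of -1.90 (SE 0.61) had the smallest unadjusted p of the set, 0.0149 in limma, and an adjusted p of 0.745. Nop10, the smallest protein of the core, stood at 269 and 257 FPKM in controls, against 178 and 87.3 FPKM after siRNA (log2 difference -1.07, SE 0.63). Dkc1, the pseudouridine synthase dyskerin, stood at 143 and 260.1 FPKM against 99.6 and 106 FPKM (log2 difference -0.90, SE 0.62). Implied fragments of Dkc1 were 1244 and 2439 against 714 and 1325, with siRNA replicate 2 between the controls. Those of Nop10 were 4616 and 4932 against 2106 and 1070, in the same order as its FPKM after siRNA. Gar1, the remaining core protein, differed from its partners. It stood at 29.1 and 37.2 FPKM in controls, 17.9 FPKM in siRNA replicate 1 and 128 FPKM in siRNA replicate 2. The first of these siRNA values was below both controls and the other above both, unlike its 3 partners in siRNA replicate 2. Ratios within the complex also differed between the controls, with Dkc1 and Nhp2 at 143 and 749 FPKM in control replicate 1. In control replicate 2 they stood at 260.1 and 709 FPKM.

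Proteins of nucleolar organisation and ribosomal DNA transcription were above both controls in FPKM in siRNA replicate 2 in 4 of 4 members (32.0% of all tested genes). They were below both in siRNA replicate 1 in 3 of 4 (48.3%). Npm1, nucleophosmin, an abundant histone and ribosome chaperone of the nucleolus, stood at 426 and 251 FPKM in controls, against 226 and 596 FPKM after siRNA. Ncl, nucleolin, which binds nascent precursor rRNA, stood at 62.1 and 30.0 FPKM against 25.8 and 156 FPKM. The siRNA FPKM values thus lay on either side of the controls in both genes. The log2 differences of 0.17 (SE 0.69) and 0.55 (SE 0.94) were smaller than their errors. Implied fragments of Npm1 were 3435 and 2658 in controls, against 1819 and 2564 after siRNA. Those of Ncl were 1155 and 930 against 453 and 829. In fragments siRNA replicate 2 thus lay below both controls in both genes, where implied depth was also lower, and the cause was not tested. Tcof1, treacle, a cofactor of RNA polymerase I, stood at 7.14 and 4.46 FPKM against 4.15 and 8.68 FPKM. Ddx21, an RNA helicase of the nucleolus, stood at 13.8 and 5.61 FPKM against 5.73 and 14.7 FPKM. Implied fragments of Tcof1 were 68 and 49 in controls, against 24 and 316 after siRNA, and those of Ddx21 1124 and 518 against 328 and 843. Npm1 had 7 near-identical pseudogenes, of which those in the tables summed to at most 39.7 FPKM in any library.

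Among 23 tested small subunit processome members, 8 had both siRNA values under both controls and 0 over them, with a median log2 difference of -0.53. The 8 are 34.8% of the group, near the 30.0% of all tested genes (8.60% over both controls). Imp4, a protein of the U3 snoRNP, lies on chromosome 1 from 34439851 to 34449356. It stood at 157 and 141 FPKM in controls, against 57.4 and 17.3 FPKM after siRNA (log2 difference -2.20, SE 0.74, limma adjusted p = 0.745). Rrp36, needed for early cleavages of the precursor, stood at 12.96 and 20.3 FPKM against 4.42 and 0.820 FPKM (log2 difference -2.46, SE 1.01, limma adjusted p = 0.745). In both genes the 2 siRNA libraries were lower in FPKM than either control, by a wider margin in siRNA replicate 2. Implied fragments of Imp4 were 1278 and 1357 in controls, against 365 and 547 after siRNA, where siRNA replicate 2 was the higher. For Rrp36 they were 235 and 425 against 56 and 11. The part of the transcript length assigned to Imp4 in its FPKM was not tested. Imp3 and Mphosph10, which form a complex with Imp4, did not share its level in siRNA replicate 2. Imp3 stood at 138 and 172 FPKM in controls, against 62.3 and 126 FPKM after siRNA, and Mphosph10, named for its place in this complex after its values were seen, at 60.2 and 45.2 FPKM against 30.0 and 102 FPKM. In siRNA replicate 1 all 3 lay below both controls, Imp3 at 40.2%, Mphosph10 at 57.0% and Imp4 at 38.5% of the control mean.

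Utp23, a processing factor, stood at 158 and 142 FPKM in controls, against 64.0 and 91.6 FPKM after siRNA, below both controls in both. Nop14 stood at 23.6 and 12.2 FPKM against 4.68 and 10.4 FPKM, with Heatr1, a large scaffold of the UTP-A subcomplex, at 1.796 and 2.55 FPKM against 0.593 and 0.296 FPKM. In the other direction, Rrp9, a U3-specific protein, stood at 24.1 and 7.05 FPKM in controls, against 19.6 and 123 FPKM after siRNA. Only siRNA replicate 2 lay above its controls, and the log2 difference of 1.83 (SE 1.04) did not pass in limma (adjusted p = 0.745). Wdr75, of the same subcomplex as Heatr1, stood at 134 and 42.6 FPKM against 58.4 and 179 FPKM. Utp3, chosen for mention after its values were seen, stood at 16.7 and 21.1 FPKM against 11.3 and 142 FPKM. Its log2 difference of siRNA replicate 2 from the control mean, 2.85, came after that of Rrp9, 3.13. Over the whole group siRNA replicate 1 was mostly low, with 19 of 23 below both controls (48.3% of all tested genes). In siRNA replicate 2, 11 were above both (32.0% of all tested genes) and 8 below both (50.5%).

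**Figure D3:**
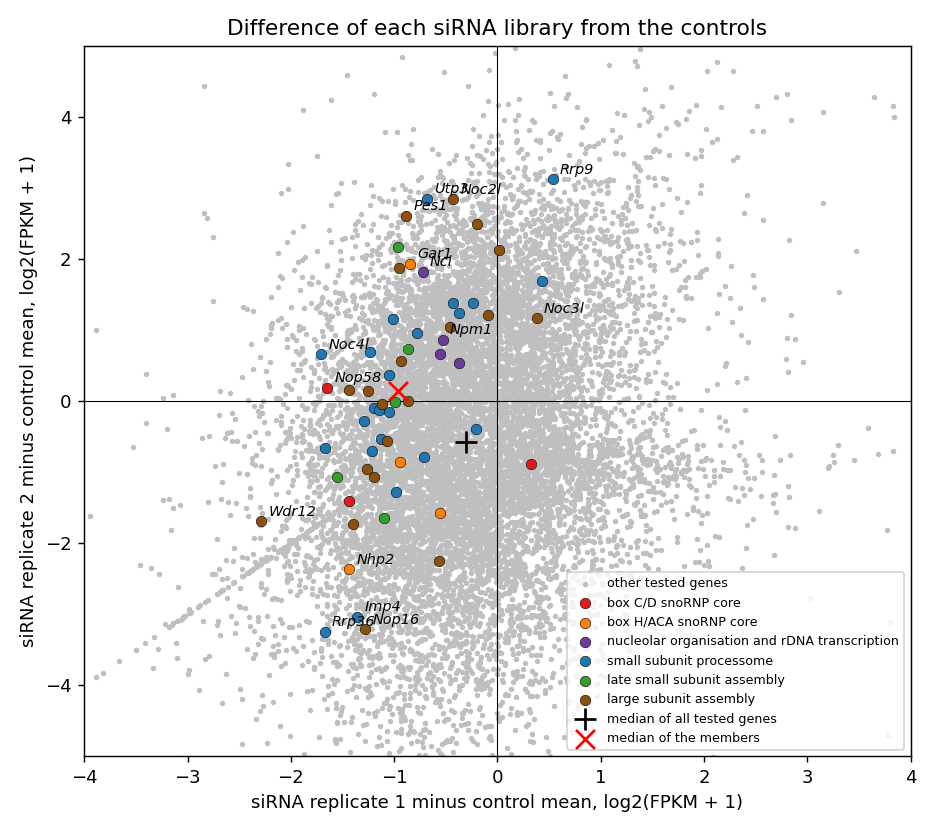
Difference of siRNA replicate 1 (horizontal) and of siRNA replicate 2 (vertical) from the control mean on log2(FPKM + 1), 1 point per gene, members coloured by role and other tested genes in grey (130 genes lie outside the axes). Most members lie left of 0, at a median of -0.96, and they stretch vertically from Rrp36 and Nop16 to Rrp9. Both axes are taken against the same 2 controls.

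The late small subunit factors were all below both controls in siRNA replicate 1 (5 of 5, against 48.3% of all tested genes). Pno1, a partner of the endonuclease Nob1, stood at 229 and 239.6 FPKM in controls, against 109 and 74.2 FPKM after siRNA. Its controls were nearly equal in FPKM and both siRNA libraries lay under them (log2 difference -1.37, SE 0.59, limma adjusted p = 0.745). Implied fragments of Pno1 were 1665 and 1737 in controls, against 1030 and 830 after siRNA, where implied depth was also lower. FPKM of Pno1 thus fell further than its fragments did, and the cause was not tested. Ltv1, an assembly factor removed late in maturation, stood at 68.3 and 54.1 FPKM against 20.02 and 28.3 FPKM (log2 difference -1.31, SE 0.67). Nob1, which makes the final cut of 18S rRNA, stood at 51.2 and 41.2 FPKM against 22.5 and 45.7 FPKM, with siRNA replicate 2 between the controls. Tsr1, a GTPase-like factor, stood at 27.3 and 8.96 FPKM against 8.20 and 27.04 FPKM, again with siRNA replicate 2 between the controls. Rrp12, an export factor, stood at 3.79 and 4.07 FPKM in controls, 1.54 FPKM in siRNA replicate 1 and 21.2 FPKM in siRNA replicate 2. The controls of Rrp12 were nearly equal, and its siRNA libraries lay on opposite sides of them.

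Of the 20 large subunit factors, 6 had both siRNA values under both controls, the same share as the 30.0% of all tested genes. Nop16 stood at 234 and 198 FPKM in controls, against 88.1 and 22.3 FPKM after siRNA, at 40.8% and 10.3% of the control mean. Its log2 difference was -2.25 (SE 0.77, limma adjusted p = 0.745). Implied fragments of Nop16 were 1970 and 1834 in controls, against 767 and 366 after siRNA, where implied depth was also lower. In siRNA replicate 2 its FPKM thus fell further than its fragments did, and the cause was not tested. Brix1, an assembly factor of the nucleolus, stood at 466 and 512 FPKM against 185 and 147 FPKM (log2 difference -1.56, SE 0.57, limma adjusted p = 0.745). Here the 2 controls were close to each other in FPKM, and so were the 2 siRNA libraries. Implied fragments of Brix1 were 2276 and 2421 in controls, against 1378 and 1360 after siRNA. Implied depth was also lower after siRNA, at 1.16e+07 and 1.18e+07 fragments against 1.65e+07 and 1.88e+07 in controls. FPKM of Brix1 thus fell further than its fragments did at that depth, and the cause was not tested. Rrp15 also had close controls and close siRNA libraries, at 154 and 139 FPKM against 63.3 and 69.3 FPKM. Mrto4, a relative of the stalk protein P0, stood at 116 and 74.8 FPKM against 38.2 and 47.7 FPKM. Rrp1b stood at 31.4 and 14.04 FPKM against 13.9 and 3.62 FPKM, where siRNA replicate 1 lay just under the lower control. Nmd3, the export adaptor of the large subunit and the most abundant transcript of the group, stood at 530.4 and 457 FPKM in controls, against 270.2 and 491 FPKM after siRNA. Noc3l, a partner of Noc2l, was the only tested member with both siRNA libraries above both controls, at 10.6 and 9.70 FPKM against 13.5 and 24.0 FPKM.

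Bop1, Pes1 and Wdr12 form the PeBoW complex, which acts in processing of the large subunit rRNA, and their transcripts differed in siRNA replicate 2. Wdr12 stood at 38.3 and 35.2 FPKM in controls, against 6.74 and 10.7 FPKM after siRNA, 18.3% and 29.1% of the control mean (log2 difference -1.99, SE 0.76, limma adjusted p = 0.745). Pes1 stood at 5.88 and 2.16 FPKM against 1.52 and 27.4 FPKM, with Bop1 at 1.12 and 6.44 FPKM against 2.74 and 8.22 FPKM. In siRNA replicate 2, Wdr12 was thus below both controls and its partners above both. Wdr12 had 2 near-identical pseudogenes whose FPKM summed to at most 7.58 in any library, and Pes1 had 2 at no more than 0.0362 FPKM in those tabulated. Noc2l, chosen for mention after its values were seen, stood at 10.6 and 2.56 FPKM against 3.77 and 45.1 FPKM.

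With siRNA replicate 2 alone against the controls, 7 of 59 members passed an adjusted p of 0.05 in limma. Lower were Nhp2, Nop16, Imp4, Rrp36, Brix1 and Pno1 (6 of 59, against 9.68% of all tested genes), and higher was Utp3 (1 of 59, against 2.24%). That fit assumes that the lone library varies like the controls, and its shares are near the background. At an unadjusted p under 0.05 it gave 19 members in either direction, against 33.5% of all tested genes. With siRNA replicate 1 alone, 0 members and 0 of all genes passed in limma, while 14 members had an unadjusted p under 0.05, all lower, against 7.27% of all tested genes lower and 0.864% higher. All 6 of the members lower in the first of these fits were among the 14, and both fits share the same controls.

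The controls also set a limit. Control replicate 1 lay above control replicate 2 in 43 of 59 members (54.7% of all tested genes), and 17 members differed more than 2-fold between the controls on the log2(FPKM + 1) scale (29.8% of all tested genes). The median absolute log2 difference between the controls was 0.58 over the members and 0.60 over all tested genes. Between the siRNA libraries it was 1.30 and 1.28, and 39 members were more than 2-fold apart there (61.0% of all tested genes). siRNA replicate 2 lay above siRNA replicate 1 in 47 of 59 members, against 46.4% of all tested genes.

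Length was a feature along which members differed. Ordered by the coding length of the main annotated transcript, a measure chosen after the data were seen, the 19 shortest tested members (192 to 1209 bases) had a median difference of -0.88 in siRNA replicate 2, the 21 in the middle 0.16 and the 19 longest (2061 to 8367 bases) 0.74. For siRNA replicate 1 the medians were -1.12, -0.95 and -0.57. All tested genes in the same 3 length ranges had medians of -0.82, -0.03 and 0.43 for siRNA replicate 2 and -0.41, -0.27 and -0.20 for siRNA replicate 1. Both siRNA values were under both controls in 11 of the 19 shortest and 4 of the 19 longest members, against 36.5% and 17.6% of all tested genes in those ranges. Across members, Spearman's rho of coding length with the difference was 0.38 for siRNA replicate 1 and 0.42 for siRNA replicate 2 (59 genes from the same libraries), and across 9939 tested coding genes 0.08 and 0.30. With whole transcript length, which includes long untranslated ends for some members, rho was 0.18 and 0.11 over the members and 0.04 and 0.34 over 12352 tested genes. For siRNA replicate 2 the members' rho was thus above that of all genes with coding length and below it with transcript length. The part of length in the differences was not tested. Among the 19 shortest members 12 lay below both controls in siRNA replicate 2, Nhp2, Nop16 and Imp4 among them, and 4 above both (Gar1, Npm1, Rrs1 and Rcl1). Among the 19 longest 13 lay above both, Utp20 and Rrp12 among them, and 4 below both (Heatr1, Nop14, Rrp1b and Nol11). Of all tested genes of any length, 50.5% lay below both controls in siRNA replicate 2 and 32.0% above both. Shares within the length ranges were not taken for that library alone.

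**Figure D4:**
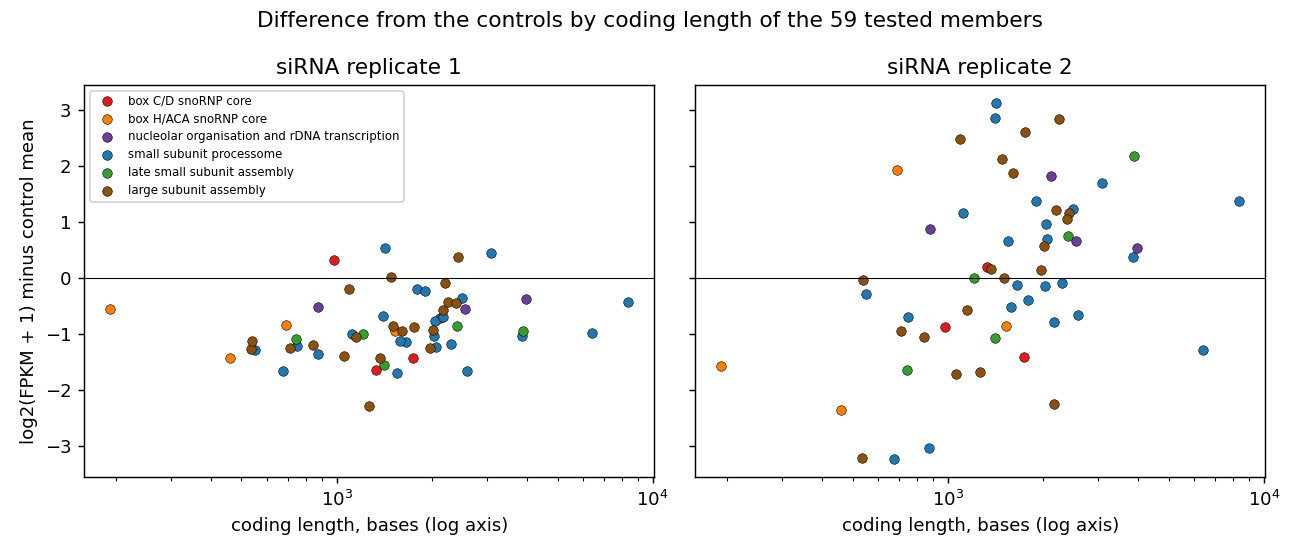
Difference of each siRNA library from the control mean on log2(FPKM + 1) against coding length in bases (log axis), 1 point per tested member (59), coloured by role. In siRNA replicate 2 the shortest members lie mostly under 0 and the longest mostly over it, with rho 0.42, while in siRNA replicate 1 most lie under 0 at every length.

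Of the 60 members, 7 contain annotated small nucleolar RNA genes on their own strand (21 in all): Nop56, Nop58, Dkc1, Ncl, Wdr43, Tsr1 and Gnl3. The host members were below both controls in siRNA replicate 1 in 7 of 7 cases, with a median difference of -0.95. That held for 42 of the other 52 tested members and 48.3% of all tested genes. In siRNA replicate 2, 2 of 7 hosts were above both, with a median of 0.19, against 24 of the other 52 and 32.0% of all tested genes. The other 52 tested members had medians of -0.97 and 0.07. The values of hosts overlapped those of the rest.

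Other genes of the pathway that are not in the set were measured from 3 lists. Of 59 tested further nucleolar processing factors, 0 passed in limma in either direction. In limma 3 were lower at an unadjusted p under 0.05, near the 5.21% of all tested genes. Both siRNA values lay under both controls in 23 and over them in 2 (30.0% and 8.60% of all tested genes). Their medians were -0.88 in siRNA replicate 1 and 0.04 in siRNA replicate 2. Fcf1, which acts in 18S rRNA processing, stood at 754 and 558 FPKM in controls, against 199 and 230.4 FPKM after siRNA (log2 difference -1.59, SE 0.58), Ebna1bp2 at 188 and 159 FPKM against 53.0 and 50.5 FPKM, and the helicase Ddx47 at 56.7 and 43.3 FPKM against 9.30 and 14.9 FPKM. Among 7 chaperones that assemble snoRNPs, 0 passed, 5 had both siRNA values under both controls and 0 over them, with medians of -1.26 and -1.91. Znhit3 stood at 1376 and 962 FPKM against 513 and 283 FPKM, Ruvbl1 at 43.0 and 87.9 FPKM against 20.1 and 15.6 FPKM, with Ruvbl2 at 32.4 and 13.9 FPKM against 9.57 and 0.667 FPKM. Of 13 exosome subunits and cofactors, which trim and degrade precursor RNA, 0 passed, 8 lay below both controls and 1 above, with medians of -1.01 and -1.16. Exosc9 stood at 28.6 and 16.2 FPKM in controls, against 8.92 and 0.0483 FPKM after siRNA, Exosc4 at 10.8 and 11.7 FPKM against 3.02 and 0.523 FPKM, with C1d at 208 and 144 FPKM against 79.4 and 63.4 FPKM. The difference between these medians and the members' 0.14 in siRNA replicate 2 was not tested.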

How the data were processed

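RNA of 4 libraries (2 control, 2 siRNA, grouped by the treatment label and numbered in accession order) was copied from an oligo(dT) primer and amplified as full-length cDNA, per the labels' protocols. Per the file headers, the authors deposited FPKM with lower and upper bounds for every library. The submitters' processing notes list, without roles, the build mm10 and Cufflinks and Cuffdiff 2.2.1, STAR 2.7.3a, SAMtools 1.7 and Trim Galore 0.6.5. No source used here names the annotation release. Entries of 1 identifier were summed, and 2 genes with a failed estimate were left out. FPKM keeps no read counts. Implied fragments were taken from the width of the bounds (relative half-width as 2 Poisson SDs), cover counting error only, and entered no test. Amplified fragments are not independent molecules. Of the identifiers 99.1% matched GENCODE M21, whose principal coding transcript gave lengths. Pseudogene copies were found with blastn 2.17.0.

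Genes reaching 1 FPKM in 2 or more libraries were log2-transformed after adding 1 and tested two-sided with R 4.3.3 and limma 3.58.1, using a mean-variance trend, Benjamini-Hochberg adjusted over all genes, at a threshold of 0.05. Fold changes on this scale understate changes of low genes. An exact permutation test of 2 against 2 libraries cannot go below p = 0.333. The script was tested on simulated data. The members, lists and named-gene rule were chosen with earlier results of these data known. The text gives all members of role groups of up to 5, the PeBoW complex, in larger groups the 6 with the smallest p and the 3 most abundant, members with both siRNA libraries above both controls, and the 3 genes with the smallest p of each further list. The rule also covered members over 1 (log2) beyond both controls in opposite directions, and members under 1 FPKM in 1 library with 20 FPKM or more in the other 3. No member met these. Alternatives were another filter, pseudocount, scaling or prior, and leaving out each library.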

Additional observations from a re-analysis of the deposited data

How the results depend on the processing

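Of the 34 members named by rule, 20 kept the sign of their log2 difference under each of the 12 alternatives in which they were tested, and 14 reversed in at least 1. Leaving out siRNA replicate 1 gave 1477 genes past the threshold in limma, and each of the other 11 gave 0. The median of the members ranged from -0.96 to 0.14 when 1 library was left out, the latter without siRNA replicate 1. The members with both siRNA libraries below both controls numbered 20 of 59 (30.0% of all genes), but 11 with TPM (21.4%), 11 with cyclic loess (18.5%), 15 with quantile normalization (18.7%) and 15 with median-of-ratios scaling (19.1%). With 1 library left out they numbered 21 to 49: 21 without siRNA replicate 1 (50.5%), 22 and 30 without control replicate 1 and 2 (41.9% and 44.2%), and 49 without siRNA replicate 2 (48.3%). Relative to all tested genes, the members' median in siRNA replicate 1 was -0.65, and -0.90 with no filter, with -0.45 to -0.85 when a control was left out. In siRNA replicate 2 it was 0.72, and 0.17 with no filter, 0.51 with quantile normalization and 0.43 to 0.73 when a control was left out.

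Signs reversed as follows, and the cause was not tested. Tsr1 was 0.35 with TPM, 0.33 with median-of-ratios scaling, 0.20 with quantile normalization and 0.33 with cyclic loess. Quantile normalization also gave Fbl 0.26 and Nmd3 0.22, and cyclic loess Nop58 0.054, Nob1 0.039 and Nmd3 0.44. With 1 library left out, log2 differences spanned 0 for 12 members: Bop1 -0.34 to 1.47, Ddx21 -0.55 to 0.67, Fbl -0.88 to 0.33, Gar1 -0.84 to 1.93, Ncl -0.73 to 1.82, Nop58 -1.65 to 0.19, Npm1 -0.53 to 0.86, Pes1 -0.89 to 2.61, Rrp12 -0.96 to 2.17, Tcof1 -0.37 to 0.54, Tsr1 -0.87 to 0.74, Wdr75 -0.38 to 1.25. Without siRNA replicate 1, Nhp2 (-2.37), Imp4 (-3.04), Rrp36 (-3.25), Pno1 (-1.65), Brix1 (-1.73) and Nop16 (-3.21) passed in limma. Coding length in place of transcript length, chosen after seeing the data, moved rho from 0.18 to 0.38 in siRNA replicate 1 and from 0.11 to 0.42 in siRNA replicate 2.

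The labels carry no replicate numbers, but the deposited table names number control replicate 1 and siRNA replicate 2 alike, and likewise the other two. Deviations of same-numbered libraries correlated at 0.058 across 12390 genes, and that value was not computed over the members alone. Control replicate 1 lay above control replicate 2 in 43 of 59 members (54.7% of all tested genes). The library numbered like it, siRNA replicate 2, lay above siRNA replicate 1 in 47 of 59 (46.4%). What a shared number marks is not stated. Neither the correlation nor these counts can show whether same-numbered libraries share a batch. A replicate block on the shared number, added after seeing the data, gave 1 gene past the threshold in limma (Snord47, named after its value was seen) and no member. At an unadjusted p under 0.05 in limma it gave 6 members lower and 1 higher. The share of all genes at that p was not taken for this block. Depth limits Fbl, Nol6 and other members near 1 FPKM.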
